A study of Mus musculus with 6 samples.

Results

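The genes described here are 10 markers of the alveolar macrophage, the resident phagocyte of the lung airspace: Siglecf, Siglec1, Marco, Msr1, Mrc1, Ear2, Car4, Chil3, Cd68 and Lyz2. They were chosen by gene symbol, as surface receptors, a surface enzyme, and granule, lysosomal or secreted proteins that mark this cell. All 10 had a row among the 10539 genes of the FPKM table, and all 10 were among the 9617 genes with a mean of at least 1 FPKM that were tested. FPKM counts sequenced fragments per kilobase of gene, scaled to the mapped fragments of the library. All samples are alveolar macrophages from the lungs of C57BL/6 mice, made to overexpress C/EBPβ, a leucine zipper transcription factor. There were 3 libraries in the group CEBPb and 3 in the group CEBPb-A. The CEBPb-A cells also received an adenovirus carrying A20, a ubiquitin-editing brake on NF-κB signalling encoded by Tnfaip3. C/EBPβ overexpression is thus common to both groups, and cells without it were not analysed here. The sources used here do not give the way C/EBPβ was delivered, any control virus, the age of the mice, or whether each library came from its own animal or culture. P-values therefore cover only the variation among these 6 libraries, and part or all of it may be technical.

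Alveolar macrophages live on the airway side of the lung, take up inhaled particles and surfactant, and carry receptors that few other macrophages carry together. Siglecf and Siglec1 encode lectins that bind sialic acid, Marco and Msr1 encode class A scavenger receptors for bacteria and modified lipoproteins, and Mrc1 encodes the mannose receptor CD206. Car4 encodes a membrane-anchored carbonic anhydrase, Ear2 a secreted ribonuclease of the eosinophil-associated family, Chil3 the chitinase-like protein Ym1, Cd68 a heavily glycosylated lysosomal membrane protein and Lyz2 the lysozyme of macrophages. Siglec1 is also known as a gene induced by type I interferon.

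Depth is unknown, because the values are FPKM. The most abundant transcript of each library was Lyz2, and the 10 markers together made up 9.55% to 12.5% of the listed FPKM. On the first principal component CEBPb-A replicate 3 scored 25.6, far from the −11.7 to −0.0954 of the remaining 5 libraries. The mean of Tnfaip3 in CEBPb-A, 10.2 ± 4.53 FPKM, lay below the 15.2 ± 5.64 FPKM of CEBPb (SD, n = 3 each; limma adjusted p = 0.606). The extra A20 transcript was thus not seen, and each direction given here is between the libraries labelled CEBPb-A and the libraries labelled CEBPb. Fold changes went down with transcript length over 9570 tested genes that have one (Spearman rho −0.546 across genes, which do not count as replicates, or −0.334 without CEBPb-A replicate 3). All 27 other alveolar macrophage markers looked up were listed and summed to 4064 to 4656 FPKM per library. That list was chosen with earlier results of these data known, so its full presence is no independent check of the label. Of markers of other cells, none of 5 for eosinophils, 9 for T and NK cells and 6 for B cells was among the rows analysed here. C1qa, a complement gene of monocytes and interstitial macrophages, stood at 2.60 ± 0.363 FPKM in CEBPb and 1.81 ± 0.216 in CEBPb-A, without overlap (limma adjusted p = 0.588, n = 3 each). Vwf, the endothelial marker listed of 6, stood at 7.29 to 8.50 FPKM in CEBPb and 5.77 to 7.30 in CEBPb-A. Pdgfra, 1 of 6 for fibroblasts, and Clec9a, 1 of 7 for dendritic cells, were near or under 1 FPKM in every library. Neutrophil markers (4 of 10 listed, led by S100a8 and Csf3r) summed to 216 to 266 FPKM in CEBPb and 299 to 319 in CEBPb-A. S100a8 carried most of this at 295 ± 8.35 against 233 ± 29.7 FPKM (limma adjusted p = 0.588), while Csf3r had a lower mean in CEBPb-A, at 9.88 ± 1.14 against 10.5 ± 0.956 FPKM, with overlapping groups (limma adjusted p = 0.803). Of these 4 markers, 3 had a higher mean in CEBPb-A, 1 a lower one, and none passed the adjusted threshold of 0.05. Ly6g, Mpo, Elane and S100a9 were not among the rows analysed. For these and the markers of other cells, a missing row gives no value and does not show a lack of expression. Epithelial markers (5 of 13 listed, led by Scgb1a1 and Cdh1) summed to 33.6 to 43.5 FPKM in CEBPb and 37.5 to 75.4 in CEBPb-A, highest in CEBPb-A replicate 3, where Scgb1a1 stood at 59.4 FPKM. None of the listed markers was at 0 in every library, and the part of other cells in the results below was not tested.

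For Car4, Ear2 and Cd68, the 3 markers whose libraries did not overlap between the groups, the 250 bases before the RefSeq transcription start are shown, because these 3 genes stood together in the comparison that follows. Promoters were found for 8 of the 10 markers, not for Siglec1 and Msr1. The regions are chr14:44102404-44102653 on the plus strand for Ear2, chr11:84957504-84957753 on the plus strand for Car4 and chr11:69666171-69666420 on the minus strand for Cd68, in GRCm38.p6. Each is written 5′ to 3′ on the gene's strand, and capitals mark a match to one of 4 searched motifs.
Ear2: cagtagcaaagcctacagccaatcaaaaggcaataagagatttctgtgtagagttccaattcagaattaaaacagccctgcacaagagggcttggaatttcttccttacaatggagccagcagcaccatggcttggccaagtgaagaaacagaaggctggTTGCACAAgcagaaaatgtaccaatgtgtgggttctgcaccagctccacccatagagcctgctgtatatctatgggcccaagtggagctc
Car4: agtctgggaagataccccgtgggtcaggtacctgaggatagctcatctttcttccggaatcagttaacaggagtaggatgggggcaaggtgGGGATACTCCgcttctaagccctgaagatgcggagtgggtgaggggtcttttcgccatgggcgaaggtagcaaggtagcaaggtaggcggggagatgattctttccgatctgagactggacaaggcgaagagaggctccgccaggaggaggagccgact
Cd68: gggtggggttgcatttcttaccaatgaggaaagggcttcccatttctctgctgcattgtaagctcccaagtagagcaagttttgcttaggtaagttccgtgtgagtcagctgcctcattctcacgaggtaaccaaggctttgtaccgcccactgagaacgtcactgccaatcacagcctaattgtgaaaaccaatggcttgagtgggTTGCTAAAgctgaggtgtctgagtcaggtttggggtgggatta
The motifs, searched on both strands with overlapping matches counted, were GAGGAAGT (PU.1-type), TTGCNNAA (C/EBP-type), a repeat of GAAA with any 2 bases between (interferon response-type) and GGG followed by any 5 bases and CC (κB-type). The C/EBP-type letters occurred in Ear2 at position −90 and in Cd68 at position −43 from the start, and in none of the 6 other marker promoters. Of 32851 mouse promoter windows of this length, 9.56% held them. The κB-type letters occurred in Car4 at position −159 and also in the windows of Marco, Mrc1 and Chil3, and in 45.8% of all windows. The PU.1-type letters (2.44% of all windows) and the interferon response-type letters (2.98%) were in none of the 8. These matches describe letters only, and no binding was measured.

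The markers spanned a wide range of abundance. In CEBPb, Lyz2 was highest at 23522 ± 4504 FPKM, followed by Chil3 at 4664 ± 369, Cd68 at 944 ± 42.5, Ear2 at 722 ± 50.6, Marco at 620.0 ± 109 and Mrc1 at 110 ± 4.45 (mean FPKM ± SD, n = 3 each). Below them lay Siglecf at 103 ± 2.06, Siglec1 at 94.4 ± 2.51, Msr1 at 46.7 ± 4.11 and Car4 at 45.6 ± 2.08 FPKM. Neighbours in this order did not overlap between libraries, except Ear2 with Marco and Msr1 with Car4. In CEBPb-A the order differed among the less abundant markers: Siglecf (104 ± 2.08 FPKM) came before Mrc1 (102 ± 16.2), and Car4 (66.5 ± 11.2) before Msr1 (47.8 ± 3.12). There the libraries of Car4 lay above those of Msr1, whereas those of Cd68 with Ear2, Siglecf with Mrc1, Mrc1 with Siglec1 and Siglec1 with Car4 overlapped.

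**Figure D1:**
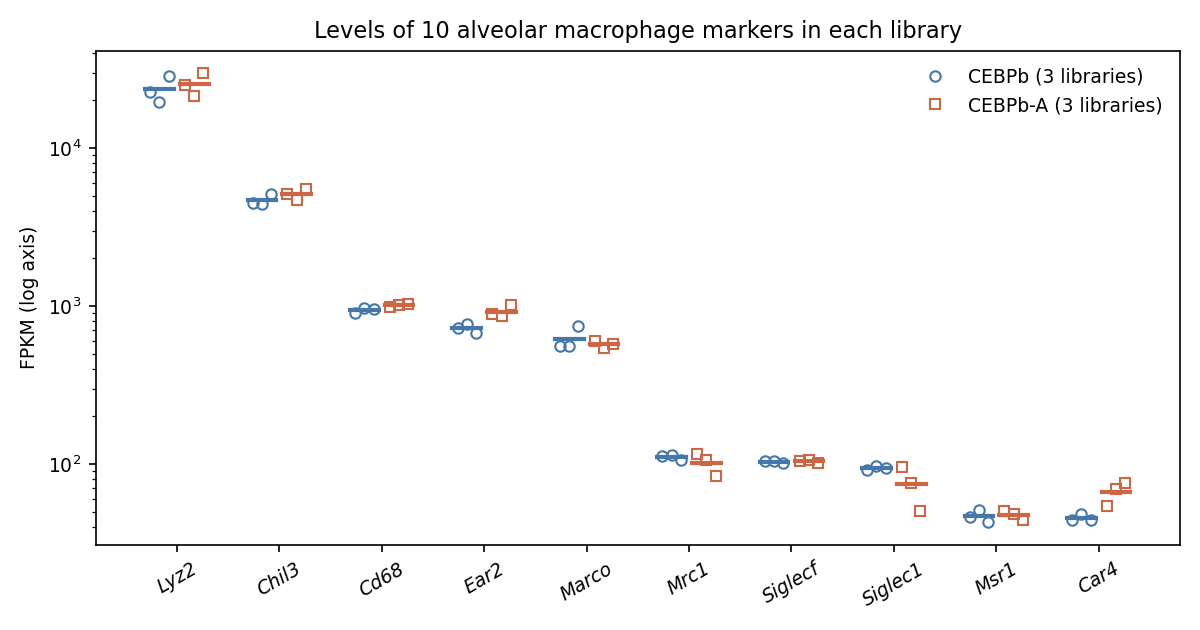
FPKM (log axis) of each marker in the 3 CEBPb libraries (circles) and the 3 CEBPb-A libraries (squares), with bars at the group means, ordered by the CEBPb mean. Car4 and Ear2 sit higher in all 3 CEBPb-A libraries, Siglec1 is spread out in CEBPb-A, and Siglecf is nearly level.

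The comparison of CEBPb-A with CEBPb asks which of these markers rise, stay or fall after A20 delivery. Fold changes are differences of mean log2(FPKM + 1), which understates the change of low genes, from a limma fit over all tested genes. None of the 10 markers passed a Benjamini-Hochberg adjusted p of 0.05 (limma adjusted p 0.588 to 0.936), where 0.0520% of tested genes did, and 2 markers, Car4 and Ear2, had an unadjusted p under 0.05, where 8.18% of tested genes did. The mean was higher in CEBPb-A for 7 markers and lower for 3, where 46.6% of tested genes were higher, with a median log2 fold change of 0.07 against −0.01 over all tested genes. After quantile normalization Siglecf, Msr1 and Cd68 were on the lower side instead, and Chil3 and Lyz2 showed no difference. That scaling gives each rank a fixed value. Lyz2 ranked 1 in every library, and Chil3 ranked 3, 3 and 4 in replicates 1 to 3 of each group. The groups did not overlap for 3 markers, Car4, Ear2 and Cd68, all higher in CEBPb-A, and 7.89% of tested genes were separated in that direction. None was separated in the other direction, in which 8.86% of tested genes were. Leaving out a library cannot undo a separation, so these 3 markers stayed separated upward in each such setting. Siglecf joined them without CEBPb-A replicate 3, where 11.2% of tested genes were separated upward, and Chil3 without CEBPb replicate 3, where 14.8% were.

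**Figure D2:**
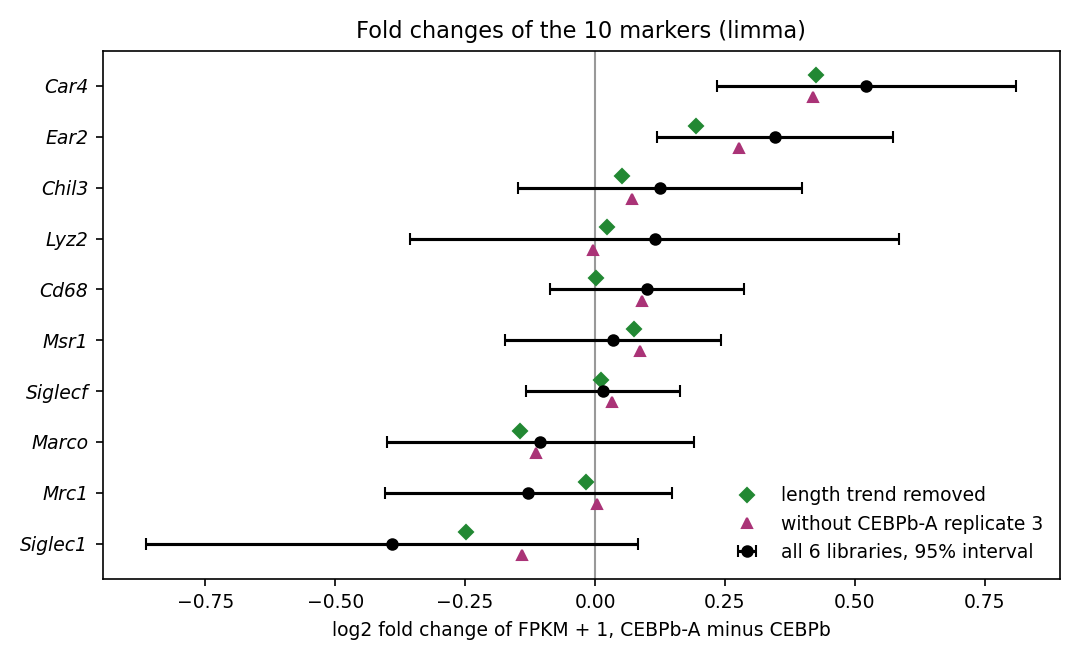
Log2 fold change of each marker, CEBPb-A minus CEBPb, with its 95% interval from limma (black), after removal of the trend with transcript length (green diamonds) and without CEBPb-A replicate 3 (purple triangles). The intervals of Car4 and Ear2 lie above 0 before adjustment for the number of genes, and the other 8 include 0.

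Car4, the membrane carbonic anhydrase that interconverts carbon dioxide and bicarbonate at the cell surface, had the highest fold change of the 10. It stood at 44.5, 48.0 and 44.3 FPKM in CEBPb replicates 1 to 3 and at 54.1, 69.4 and 76.1 FPKM in CEBPb-A replicates 1 to 3. The 3 CEBPb-A libraries were all higher, with a wide spread among them (SD 11.2, against 2.08 FPKM in CEBPb). The mean was 1.46-fold higher, a log2 fold change of 0.52 (SE 0.12, 95% interval 0.23 to 0.81; limma unadjusted p = 0.00326, adjusted p = 0.588, n = 3 each), and it ranked 48 of 9617 by p. With the length trend removed the fold change was 0.43 (SE 0.10, limma adjusted p = 0.583), and without CEBPb-A replicate 3 it was 0.42. Car4 (ENSMUSG00000000805.18) lies on GRCm38 chromosome 11 from 84957786 to 84966044, on the plus strand, and its value covers the whole gene, as for every marker here. Of the other carbonic anhydrases 3 were tested, 1 higher, 2 lower and none past the threshold: Car13, a cytosolic enzyme, stood at 11.8 ± 2.10 against 14.7 ± 1.26 FPKM and was separated downward, and the mitochondrial Car5b at 6.87 ± 0.318 against 6.60 ± 0.713 FPKM. In bulk RNA more cells of a type and more RNA per cell cannot be told apart, for Car4 or any other marker.

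Ear2, the eosinophil-associated ribonuclease 2 of mouse, was the next by fold change. It stood at 722, 772 and 671 FPKM in CEBPb and at 885, 862 and 1008 FPKM in CEBPb-A. Every CEBPb-A library was above every CEBPb library. The mean was 1.27-fold higher, a log2 fold change of 0.35 (SE 0.10, 95% interval 0.12 to 0.57; limma unadjusted p = 0.00825, adjusted p = 0.588, n = 3 each). With the length trend removed the fold change was 0.20 (adjusted p = 0.713 by limma). Ear2 (ENSMUSG00000072596.4, chromosome 14 from 44102654 to 44103534, plus strand) belongs to a cluster of near-identical genes. Its coding sequence was 97.0% identical to that of Ear10, 95.7% to Ear1, 88.2% to Ear6 and 79.4% to Ear14 in GENCODE M21. Of the 50-base stretches of its transcript, 41.5% also occurred in a transcript of another gene, so the split of fragments among these copies is uncertain. Ear1 stood at 93.9, 93.2 and 68.4 FPKM in CEBPb and 101, 110 and 128 FPKM in CEBPb-A, again without overlap (log2 fold change 0.41, SE 0.14, limma adjusted p = 0.588). The ratio of Ear2 to Ear1 ran from 7.69 to 9.80 in CEBPb and from 7.80 to 8.74 in CEBPb-A, so the groups overlapped in it. Ear10 varied most, from 7.54 to 18.2 FPKM in CEBPb and from 0.214 to 21.2 FPKM in CEBPb-A, with no separation. Of 6 tested genes of the wider ribonuclease list, 4 were higher, 2 were lower and none passed, the ribonuclease inhibitor Rnh1 standing at 190 ± 22.4 against 171 ± 15.3 FPKM and the lysosomal Rnaset2a at 242 ± 22.7 against 240 ± 6.76 FPKM.

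Cd68, the lysosomal glycoprotein used as a pan-macrophage marker, was separated by a narrow margin. It stood at 896, 977 and 959 FPKM in CEBPb and at 989, 1019 and 1026 FPKM in CEBPb-A. The lowest CEBPb-A library was above the highest CEBPb library, but the distance was smaller than the spread within CEBPb. The log2 fold change was 0.10 (SE 0.08, 95% interval −0.09 to 0.29; limma adjusted p = 0.655, n = 3 each). It was 0.0014 with the length trend removed and −0.04 after quantile normalization. Cd68 (ENSMUSG00000018774.13) lies on chromosome 11 from 69664213 to 69666153, minus strand. Of 8 tested LAMP and tetraspanin membrane proteins, 5 were higher, 3 were lower and none passed. The tetraspanins Cd9 (685 ± 37.4 against 581 ± 59.6 FPKM) and Cd63 (139 ± 19.0 against 120 ± 3.02 FPKM) were separated upward, while Lamp1, the most abundant of the list, stood at 868 ± 24.1 against 875 ± 26.1 FPKM.

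Chil3 and Lyz2, the secreted granule proteins, were the most abundant markers and did not separate. Chil3 stood at 4506, 4399 and 5086 FPKM in CEBPb and 5082, 4702 and 5472 FPKM in CEBPb-A. The groups overlapped, with the highest CEBPb library above 2 of the 3 CEBPb-A libraries. Its log2 fold change was 0.13 (SE 0.12, 95% interval −0.15 to 0.40; limma adjusted p = 0.6998, n = 3 each). Lyz2 stood at 22596, 19554 and 28417 FPKM in CEBPb and 25090, 21403 and 29717 FPKM in CEBPb-A. The spread within each group (CV 19.1% and 16.4%) was wider than the 1.08-fold difference of the means, and the fold change was 0.12 (SE 0.20, 95% interval −0.36 to 0.59; limma adjusted p = 0.848). For both genes each CEBPb-A library was above the CEBPb library of the same replicate number. With the replicate number as a block, the SE was 0.057 for Chil3 (limma adjusted p = 0.393) and 0.061 for Lyz2 (limma adjusted p = 0.42). The replicate numbers are not said to pair libraries. Lyz2 took 7.001% to 9.81% of the listed FPKM, and CEBPb replicate 3 and CEBPb-A replicate 3 were its highest libraries. Both have close copies, since the coding sequence of Chil3 was 95.3% identical to that of Chil4 and that of Lyz2 95.1% identical to Lyz1. The share of 50-base stretches found in another gene's transcript was 29.4% for Chil3 and 15.4% for Lyz2. Chil4 was far lower, at 8.35 to 18.3 FPKM in CEBPb and 9.14 to 15.8 FPKM in CEBPb-A, and Chil3 exceeded it 277-fold to 527-fold within a library. Lyz1 stood at 186, 105 and 378 FPKM in CEBPb and 225, 128 and 258 FPKM in CEBPb-A, and Lyz2 exceeded it 75.2-fold to 186-fold. In each group the libraries of Lyz1 and of Lyz2 had the same order. The 4 other chitinase family genes tested, Chil4 included, all had lower means in CEBPb-A and none passed, with Chil1 at 8.22 ± 1.29 against 9.99 ± 0.598 FPKM (separated downward) and the lysosomal Ctbs at 3.81 ± 0.970 against 4.36 ± 0.128 FPKM. Chil3 (ENSMUSG00000040809.10) lies on chromosome 3 from 106147554 to 106167564 and Lyz2 (ENSMUSG00000069516.8) on chromosome 10 from 117277331 to 117282321, both on the minus strand.

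**Figure D3:**
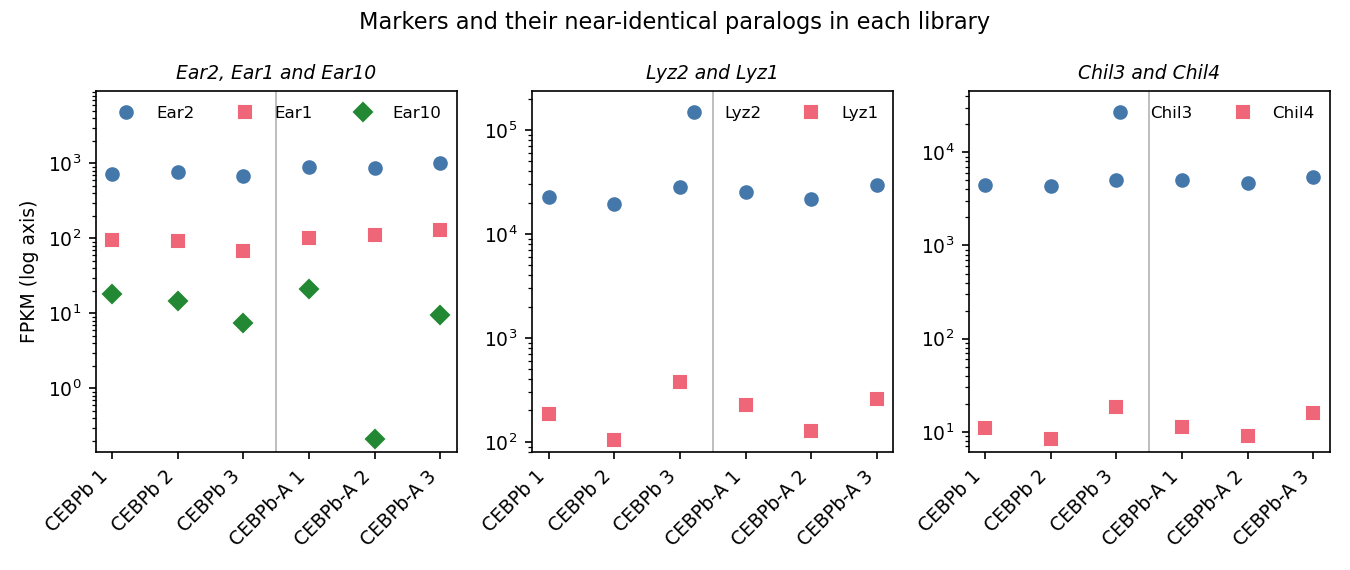
FPKM (log axis) of Ear2 with Ear1 and Ear10, of Lyz2 with Lyz1, and of Chil3 with Chil4, in each of the 6 libraries. Ear1 is higher in all 3 CEBPb-A libraries, as Ear2 is, Ear10 is at 0.214 FPKM in CEBPb-A replicate 2, and Lyz1 and Chil4 stay far below their copies.

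The sialic acid receptors differed in how steady they were. Siglecf, an inhibitory receptor and a defining marker of mouse alveolar macrophages, stood at 104, 105 and 101 FPKM in CEBPb and 105, 106 and 102 FPKM in CEBPb-A. All 6 libraries lay within a 1.05-fold range, the narrowest of the 10 markers, and the groups overlapped. Its fold change on the log2 scale was 0.02 (SE 0.06; limma adjusted p = 0.936, n = 3 each), with a 95% interval of −0.13 to 0.16, or 0.913-fold to 1.12-fold. Siglec1, the sialoadhesin that captures sialylated particles, stood at 91.8, 96.8 and 94.5 FPKM in CEBPb and 95.9, 76.1 and 50.4 FPKM in CEBPb-A. CEBPb-A replicates 2 and 3 were below every CEBPb library, and CEBPb-A replicate 1 was within the CEBPb range. The CV was 2.66% in CEBPb and 30.8% in CEBPb-A. Without CEBPb-A replicate 1 its groups separated downward, as did 17.5% of tested genes. The log2 fold change was −0.39 (SE 0.20, 95% interval −0.86 to 0.08; limma adjusted p = 0.589, n = 3 each), −0.14 without CEBPb-A replicate 3, −0.60 without CEBPb-A replicate 1 and −0.25 with the length trend removed. The ratio of Siglec1 to Siglecf within a library was 0.882, 0.924 and 0.937 in CEBPb and 0.915, 0.718 and 0.494 in CEBPb-A.

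Type I interferon response genes had their lowest values in the same CEBPb-A libraries as Siglec1. Of 24 tested, 23 had a lower mean in CEBPb-A, 11 were separated downward and none passed, with a median log2 fold change of −0.42. Among all tested genes 46.6% were higher, 8.86% were separated downward and the median was −0.01. Measured from the CEBPb mean, the median of the interferon response genes was −0.15, 0.14 and 0.00 in CEBPb replicates 1 to 3 and −0.11, −0.37 and −0.72 in CEBPb-A replicates 1 to 3. The same measure for Siglec1 was 0.02, −0.31 and −0.89 in CEBPb-A replicates 1 to 3. Oasl2, an interferon-induced 2'-5' oligoadenylate synthetase-like protein, stood at 7.73, 5.74 and 4.23 FPKM in CEBPb-A and 8.30, 11.3 and 9.58 FPKM in CEBPb (limma adjusted p = 0.588). Bst2, the virus-retaining tetherin, stood at 72.5 ± 11.2 against 99.4 ± 12.5 FPKM (limma adjusted p = 0.588). The part of the interferon response, of transcript length and of the library that stood apart in the values of Siglec1 was not tested. Of 8 tested relatives and adaptors of Siglec proteins, 4 were higher, 4 were lower and none passed. The activating adaptor Tyrobp stood at 1467 ± 199 against 1199 ± 126 FPKM and the phosphatase Ptpn6, which inhibitory Siglecs recruit, at 85.5 ± 2.27 against 74.3 ± 6.07 FPKM, both separated upward. Siglecf (ENSMUSG00000039013.16) lies on chromosome 7 from 43351341 to 43359531, plus strand, and Siglec1 (ENSMUSG00000027322.11) on chromosome 2 from 131069220 to 131086765, minus strand.

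**Figure D4:**
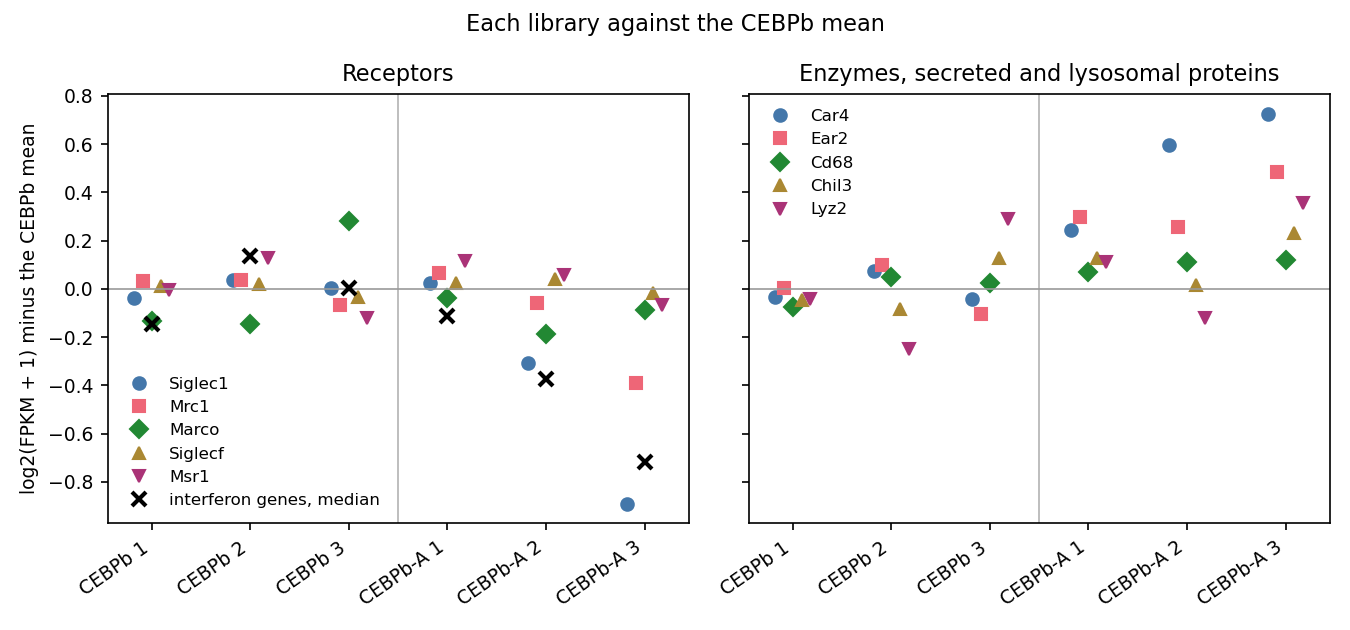
Difference of log2(FPKM + 1) from the CEBPb mean for each marker in each library, with receptors on the left and enzymes, secreted and lysosomal proteins on the right; crosses give the median of 24 interferon response genes. Siglec1 is at 0.02, −0.31 and −0.89 in CEBPb-A replicates 1, 2 and 3 beside the interferon median, while Car4 and Ear2 are above 0.2 in all 3 CEBPb-A libraries.

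The scavenger receptors and the mannose receptor showed no difference larger than their spread. Marco, which binds unopsonised particles and bacteria, stood at 559, 555 and 746 FPKM in CEBPb and 597, 539 and 578 FPKM in CEBPb-A. CEBPb replicate 3 was higher than the other 5 libraries, which lay between 539 and 597 FPKM. The log2 difference of −0.11 (SE 0.13, 95% interval −0.40 to 0.19; limma adjusted p = 0.764, n = 3 each) turned to 0.04 without that library. Msr1, the scavenger receptor A, stood at 46.4, 50.9 and 42.7 FPKM in CEBPb and 50.5, 48.5 and 44.4 FPKM in CEBPb-A. The groups overlapped almost fully (log2 fold change 0.04, SE 0.09, 95% interval −0.17 to 0.24; limma adjusted p = 0.897, n = 3 each), and the direction turned in 3 of 18 alternatives. Mrc1, the mannose receptor of macrophages, stood at 113, 113 and 105 FPKM in CEBPb and 116, 106 and 83.9 FPKM in CEBPb-A. Only CEBPb-A replicate 3 lay below the CEBPb range. Its log2 fold change was −0.13 (SE 0.12, 95% interval −0.40 to 0.15; limma adjusted p = 0.698, n = 3 each), and it was 0.0036 without that library and −0.02 with the length trend removed. Marco (ENSMUSG00000026390.7) lies on chromosome 1 from 120474538 to 120505024 and Msr1 (ENSMUSG00000025044.16) on chromosome 8 from 39581685 to 39642673, both on the minus strand, and Mrc1 (ENSMUSG00000026712.3) on chromosome 2 from 14229392 to 14332057, plus strand.

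Other receptors of these families were mixed in direction. Of 9 other scavenger receptors tested, 3 were higher, 6 were lower and none passed. Colec12, a scavenger receptor with a collagen stem and a lectin domain, stood at 94.7 ± 5.78 against 76.2 ± 11.9 FPKM and was separated upward. The large endocytic receptor Lrp1 stood at 113 ± 23.5 against 136 ± 11.5 FPKM, and Cd36, a receptor for oxidised lipids and the most abundant of the list, at 538 ± 24.9 against 546 ± 71.4 FPKM. Of 12 other C-type lectin receptors tested, 8 were higher, 4 were lower and none passed. Clec4e, the Mincle receptor for mycobacterial glycolipid, stood at 14.6, 17.1 and 13.4 FPKM in CEBPb-A and 21.96, 25.5 and 22.4 FPKM in CEBPb. Its groups did not overlap, and its log2 difference of −0.60 (SE 0.11, limma adjusted p = 0.356, n = 3 each) was farther from 0 than that of any of the 10 markers. Clec4b1 stood at 8.92 ± 1.06 against 7.35 ± 0.443 FPKM and Clec4n, the fungal receptor Dectin-2, at 362 ± 11.7 against 329 ± 32.1 FPKM.

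The markers at both ends of the fold change order also differed in transcript length. The 3 separated upward had short transcripts by GENCODE M21, 719 bases for Ear2, 1230 for Cd68 and 1256 for Car4, and the lowest fold changes belonged to the longest, 6387 bases for Siglec1 and 5374 for Mrc1. Among all tested genes the median log2 fold change was 0.11 over the 2395 shortest (up to 1918 bases) and −0.14 over the 2395 longest (from 4541 bases). These medians were 0.06 and −0.06 without CEBPb-A replicate 3. Car4 lay above the median of the shortest genes by more than Ear2 did, and Cd68 lay at about that median. With the trend removed the median of the 10 markers was 0.02 in place of 0.07, and the fold changes ran from −0.25 for Siglec1 to 0.43 for Car4.

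**Figure D5:**
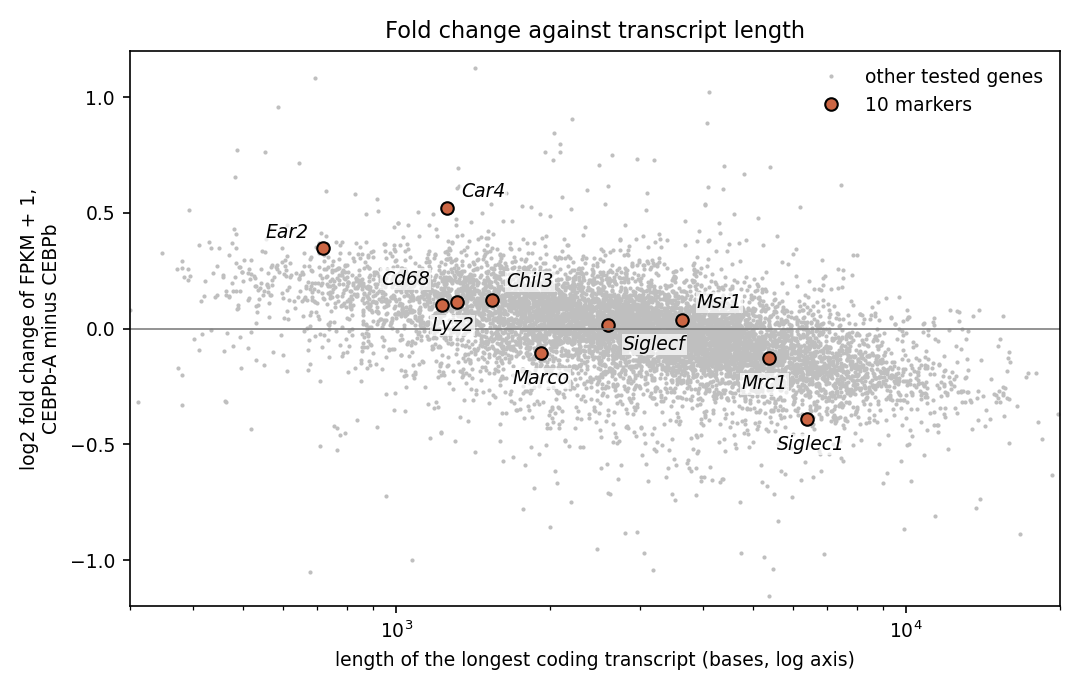
Log2 fold change, CEBPb-A minus CEBPb, against the length of the longest coding transcript (log axis) for the 10 markers (filled circles) and the other tested genes (grey points, 21 of 9570 lying outside the axes). Short transcripts tend to lie above 0 and long ones below, and among the markers Ear2 and Car4 lie at the upper left and Siglec1 at the lower right.

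The wider programme of the cell was described by its counts. Of 27 other alveolar macrophage markers tested, 18 were higher and 9 lower in CEBPb-A, 8 were separated upward and 3 downward, and none passed (median log2 fold change 0.11). For this list and the next, the shares over all tested genes were 46.6% higher, 7.89% separated upward and 8.86% downward. Fabp1, a fatty acid binding protein, stood at 10.1 ± 1.62 against 5.60 ± 1.30 FPKM, the secreted phosphoprotein Spp1 at 699 ± 34.8 against 557 ± 59.8 FPKM, and the protease inhibitor Serpinb1a at 138 ± 5.28 against 162 ± 7.47 FPKM. Of 18 receptors and transcription factors that set up this programme, 10 were higher and 8 lower, 1 was separated upward and 2 downward, and none passed (median 0.03). Pparg, the lipid-sensing nuclear receptor of alveolar macrophages, stood at 41.6 ± 1.29 against 37.8 ± 0.682 FPKM and was separated upward (limma adjusted p = 0.588). The receptor Csf1r stood at 219 ± 6.83 against 240 ± 10.6 FPKM and was separated downward (limma adjusted p = 0.590). Cebpb, the overexpressed factor, stood at 411 ± 70.5 against 429 ± 66.6 FPKM (limma adjusted p = 0.888).

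Genes with the most similar profiles were found by the root mean square difference of centred log2(FPKM + 1) over the 6 libraries, which share depth, composition and length effects with the markers. For Car4 these were Fcor and Hmg20b (differences of 0.0662 and 0.0870, against a deviation of 0.301 of Car4 from its own mean). For Ear2 they were Gm10053 and Cox7b, and for Siglec1 they were Psme2b and Mdc1 (0.0319 and 0.0495, against 0.332). For Mrc1 they were Sash1 and AU019823, for Marco Ankrd16 and Usp4, for Msr1 Crnkl1 and Nudt4, and for Cd68 Slc25a4 and Hmgb1. Chil3 was closest to Akip1 and Dok3, Siglecf to Mgmt and Snx6, and Lyz2 to the lysosomal protease Ctsd and 1700037H04Rik. Ctsd stood at 4171, 3776 and 5089 FPKM in CEBPb and 4443, 4077 and 5720 FPKM in CEBPb-A, in each group in the same library order as Lyz2. With 9617 genes to search, a close profile over 6 libraries is a description only.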

How the data were processed

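Gene expression was measured by stranded RNA sequencing of 6 libraries, per the labels' protocols. The authors deposited FPKM values for 10539 genes in 6 columns, per the file headers; the headers announce 9 columns, and all 6 present were used. Coordinates are on GRCm38, a build named in the submitters' processing notes. The sources used here name no aligner or FPKM program, and do not say how multi-mapped fragments were treated. FPKM carries no depth: among 881 genes under 1 FPKM, at most 0.91% shared a ratio between libraries within 0.002 (log2), so no whole-read steps were seen and no counting interval was made.

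Genes with a mean of at least 1 FPKM were fitted on log2(FPKM + 1) with limma 3.58.1 (R 4.3.3) with an intensity trend, two-sided, Benjamini-Hochberg adjusted over 9617 genes, threshold 0.05. The code was tested on simulated data. Lengths and paralogs come from GENCODE M21 (GRCm38; 91.2% of listed loci identical to it), paralogs aligned over the longest open reading frame with Biopython 1.88, and promoters from RefSeq. The members and lists were chosen with earlier results of these data known, so no list was tested. Named were all members, in each list the 2 genes with the smallest p and the most abundant one, for other cell types the 2 most abundant, and for each member the 2 most similar profiles. The 18 alternatives cover pseudocount, filter, scaling, limma options, replicate block, libraries left out and transcript length. The summed level of the monocyte and interstitial macrophage list is not reported here.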

Additional observations from a re-analysis of the deposited data

How the results depend on the processing

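In each of the 18 alternatives none of the 10 markers passed. Car4 (0.42 to 0.66), Ear2 (0.20 to 0.40) and Siglec1 (−0.60 to −0.14) kept their direction in all of them, but many could not have turned it. The filters, the limma options and the replicate block leave a fold change as it is. For Car4 and Ear2, whose groups were separated, a pseudocount or a left-out library could not turn the direction either. After quantile normalization Siglecf was −0.060, Msr1 −0.00026 and Cd68 −0.043. Chil3 and Lyz2 were 0, because each held the same set of ranks in both groups, and the markers' median was −0.0215. The median was 0.0174 with the length trend removed, with or without the replicate block. Leaving out each library in turn gave −0.00034 to 0.032 for Siglecf, −0.026 to 0.098 for Msr1, −0.0094 to 0.26 for Lyz2, −0.18 to 0.035 for Marco and −0.22 to 0.0036 for Mrc1.

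Over all genes 2 passed upward and 3 downward. The counts were 0 and 0 with a mean of at least 5 FPKM, where fewer genes were tested, 2 and 0 after quantile normalization, 2 and 6 with the length trend removed, 1 and 0 with the replicate block, and 0 and 0 with both. Leaving out single libraries gave 1 to 4 upward and 0 to 5 downward. The causes were not tested. The replicate numbers were not treated as pairs, since the sources used here do not say that they pair libraries. Deviations of same-numbered libraries correlated at 0.0993, 0.247 and 0.259, and those of differently numbered ones at −0.245 to 0.0869. Each library correlated best with its own number, and whether the numbers mark a shared batch was not tested. The count of markers separated upward, tried without each library after seeing the data, was 3 or 4. It could not fall below 3, because leaving out a library cannot undo a separation. Depth is unknown, so precision rests on 3 libraries per group.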
